A study of Mus musculus with 5 samples.

Results

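The proteasome genes of MutuDC cells were followed in RNA-seq libraries taken after 2, 6, 12 and 24 h with Fanchinoline (spelled as in the labels and used at a dose that the labels leave out) and in a vehicle library taken as 0 h. MutuDC is a mouse cell line of cross-presenting conventional dendritic cells, immortalised with a viral large T antigen driven by the Cd11c promoter. The members are the gene entries whose symbol begins with Psma to Psmg and a number, together with Psme3ip1 and without the immunoproteasome genes Psmb8, Psmb9 and Psmb10. This gave 46 genes of the 53700 in the table, each with 1 entry: 16 core subunits, 17 cap subunits, 6 activators, activator partners and inhibitors, and 7 assembly factors. Each time point has 1 library, and the design text describes the control as untreated cells and speaks of triplicates, which the table does not show. Every ratio below therefore compares 2 libraries with no replicate check, and exposure to the compound cannot be told apart from hours in culture.

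The proteasome is the protease that degrades ubiquitin-tagged proteins in the cytosol and nucleus. Its core is a barrel in which alpha rings gate the entrance and beta rings carry the proteolytic sites, and its cap recognises ubiquitin chains, removes them and unfolds the substrate with a ring of ATPases. In dendritic cells the same protease supplies peptides for presentation on class I molecules, and interferon-induced beta subunits and the Psme1 and Psme2 activator change the peptides that are made.

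Total counts per library lay between 33568526 and 42854511. Levels are CPM, the usual depth-normalised read count, computed after TMM scaling of library sizes, and a level of 10 CPM stood for 328 to 427 counts. Ratios were formed for the 8846 genes that reached 10 CPM in 1 library or more. Of the 12 markers of conventional type 1 dendritic cells, 12 were above 10 CPM in every library, and their summed level was 7614 CPM in vehicle and 9456, 8338, 7289 and 6946 CPM at 2, 6, 12 and 24 h. Irf8 alone held 4259 CPM of this sum in vehicle and 5140 CPM at 2 h, and Wdfy4 held 955 and 1892 CPM. Below vehicle were 6, 5, 9 and 7 of the 12 markers at 2, 6, 12 and 24 h. Of all compared genes, 46.9%, 45.5%, 48% and 50% were below vehicle at these times. Single markers had log2 ratios of -1.24 to 0.47 at 24 h over vehicle. Markers of T, B and NK cells, neutrophils, erythroid cells and fibroblasts summed to under 1 CPM in each library, those of epithelia to 7.39 to 10.47 CPM and those of plasmacytoid dendritic cells to 21.5 to 27.9 CPM. Epcam alone held 7.02 to 9.91 CPM of the epithelial sum, and Tcf4 alone 21 to 27.3 CPM of the plasmacytoid sum. The plasmacytoid markers Siglech, Spib and Ccr9 were each under 1 CPM in every library. The part of these cell markers in the results was not tested. Of 5 macrophage markers 2 were above 10 CPM, with Csf1r at 137 CPM at 24 h and 72.3 CPM in vehicle and Mertk at 0. Long transcripts weighed less against short ones in vehicle than in the treated libraries. Between the quintiles of longest and shortest genes, median log2 ratios to vehicle differed by 0.61 at 2 h and 0.78 at 24 h, and the ratios of 24 h over 12 h by 0.06. Mitochondrially encoded messages took 1.44% to 1.75% of counts in the treated libraries and 2.52% in vehicle.

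Of the 46 members, 44 were compared. Psma8, the testis-specific alpha subunit, had 0 counts in every library, which allows at most 0.070 to 0.092 CPM, and Psmb11, the beta subunit of the thymus cortex, had 4 counts in vehicle, 0 at 2, 6 and 12 h and 2 at 24 h. Per kilobase of exon, core subunits had a median level of 91.7 CPM per kb at 24 h and 115 CPM per kb in vehicle. For cap subunits it was 50.04 CPM per kb at 24 h and 63.1 CPM per kb in vehicle, and for assembly factors 13.2 CPM per kb at 24 h and 13.6 CPM per kb in vehicle. The median level per kilobase of the assembly factors in this set was thus below those of the core and cap subunits in both libraries. Pomp, an assembly chaperone that the symbol rule does not take in, is not among them. Among single members the highest level per kilobase of exon at 24 h was that of Psmb5 (211 CPM per kb), whereas per kilobase of the longest transcript it was that of Psme1 (312 CPM per kb).

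Promoters are shown for 4 picked members, the catalytic subunits Psmb5 and Psmb6, the scaffold subunit Psmd2 and the lid subunit Psmd12. Psmd2 stood above vehicle at every time and Psmd12 was one of the lowest members. Neither the lowest member at 24 h over vehicle, Psmg2, nor the highest, Psme4, is shown. The sequences are RefSeq's for GRCm38.p6 and give the 250 bases before the annotated start, 5′ to 3′ on the gene's strand. Capitals mark TGACNNNGC on either strand, the core of the antioxidant response element that NFE2L1 and NFE2L2 bind, where N is any base.
Psmb5 (chr14:54617996-54618245, minus strand): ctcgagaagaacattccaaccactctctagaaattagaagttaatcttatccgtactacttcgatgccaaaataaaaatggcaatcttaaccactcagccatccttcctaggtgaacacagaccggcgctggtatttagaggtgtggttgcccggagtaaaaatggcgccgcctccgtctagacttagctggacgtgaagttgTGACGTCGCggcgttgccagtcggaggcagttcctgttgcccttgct
Psmb6 (chr11:70525107-70525356, plus strand): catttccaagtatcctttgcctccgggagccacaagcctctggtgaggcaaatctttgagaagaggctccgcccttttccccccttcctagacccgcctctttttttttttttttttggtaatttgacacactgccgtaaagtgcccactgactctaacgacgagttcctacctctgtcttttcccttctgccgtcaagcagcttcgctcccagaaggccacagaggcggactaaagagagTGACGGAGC
Psmd2 (chr16:20651402-20651651, plus strand): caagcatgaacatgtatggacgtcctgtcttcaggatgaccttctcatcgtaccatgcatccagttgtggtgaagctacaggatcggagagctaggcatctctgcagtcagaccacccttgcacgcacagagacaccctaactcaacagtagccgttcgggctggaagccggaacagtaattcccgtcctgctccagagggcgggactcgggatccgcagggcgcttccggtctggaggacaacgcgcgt
Psmd12 (chr11:107479278-107479527, plus strand): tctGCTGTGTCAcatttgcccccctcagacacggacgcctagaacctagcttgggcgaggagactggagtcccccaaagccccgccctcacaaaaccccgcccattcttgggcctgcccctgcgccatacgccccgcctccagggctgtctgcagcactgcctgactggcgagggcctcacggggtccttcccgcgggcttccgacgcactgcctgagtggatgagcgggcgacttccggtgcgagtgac

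The motif was searched in windows of 250 bases before to 50 bases after each start, which RefSeq gave for 38 of the 46 members. It occurred in 6 of the 38, or 15.8%, and in 13.99% of the 27025 gene symbols with such a window, so the members held it about as often as genes in general. Its holders were Psmb5, Psmb6, Psmc6, Psmd12, Psmd9 and Psme4. Their log2 ratios at 24 h over vehicle were 0.03, -0.28, -0.30, -0.61, 0.06 and 0.49, which covers most of the range of all members. CCAAT, the box bound by NF-Y, was searched on both strands too, can share at most a single end base with the first motif, and occurred in 14 of 38 members (36.8%) and 41.1% of all symbols. The letters are a description of these windows and were not tested for binding.

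At the level of the whole set, most proteasome messages lay below vehicle at each time, and the distance was largest at 24 h. The members summed to 9892 CPM in vehicle and 8657, 8606, 8600 and 7747 CPM at 2, 6, 12 and 24 h. In bulk RNA, fewer cells of a type and less RNA per cell cannot be told apart. The members' median log2 ratio to vehicle was -0.21 at 2 h and -0.23 at 6 h, with 37 and 38 of 44 below 0. By 12 h it was -0.19 with 39 below 0, and at 24 h -0.35 with 38 below 0. These 4 comparisons share the vehicle library. At 24 h the core stood at a median of -0.37 and the cap at -0.35. Over all 8846 compared genes the medians lay between 0.04 and -0.0002, with 46.9% of genes below 0 at 2 h and 50% at 24 h.

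**Figure D1:**
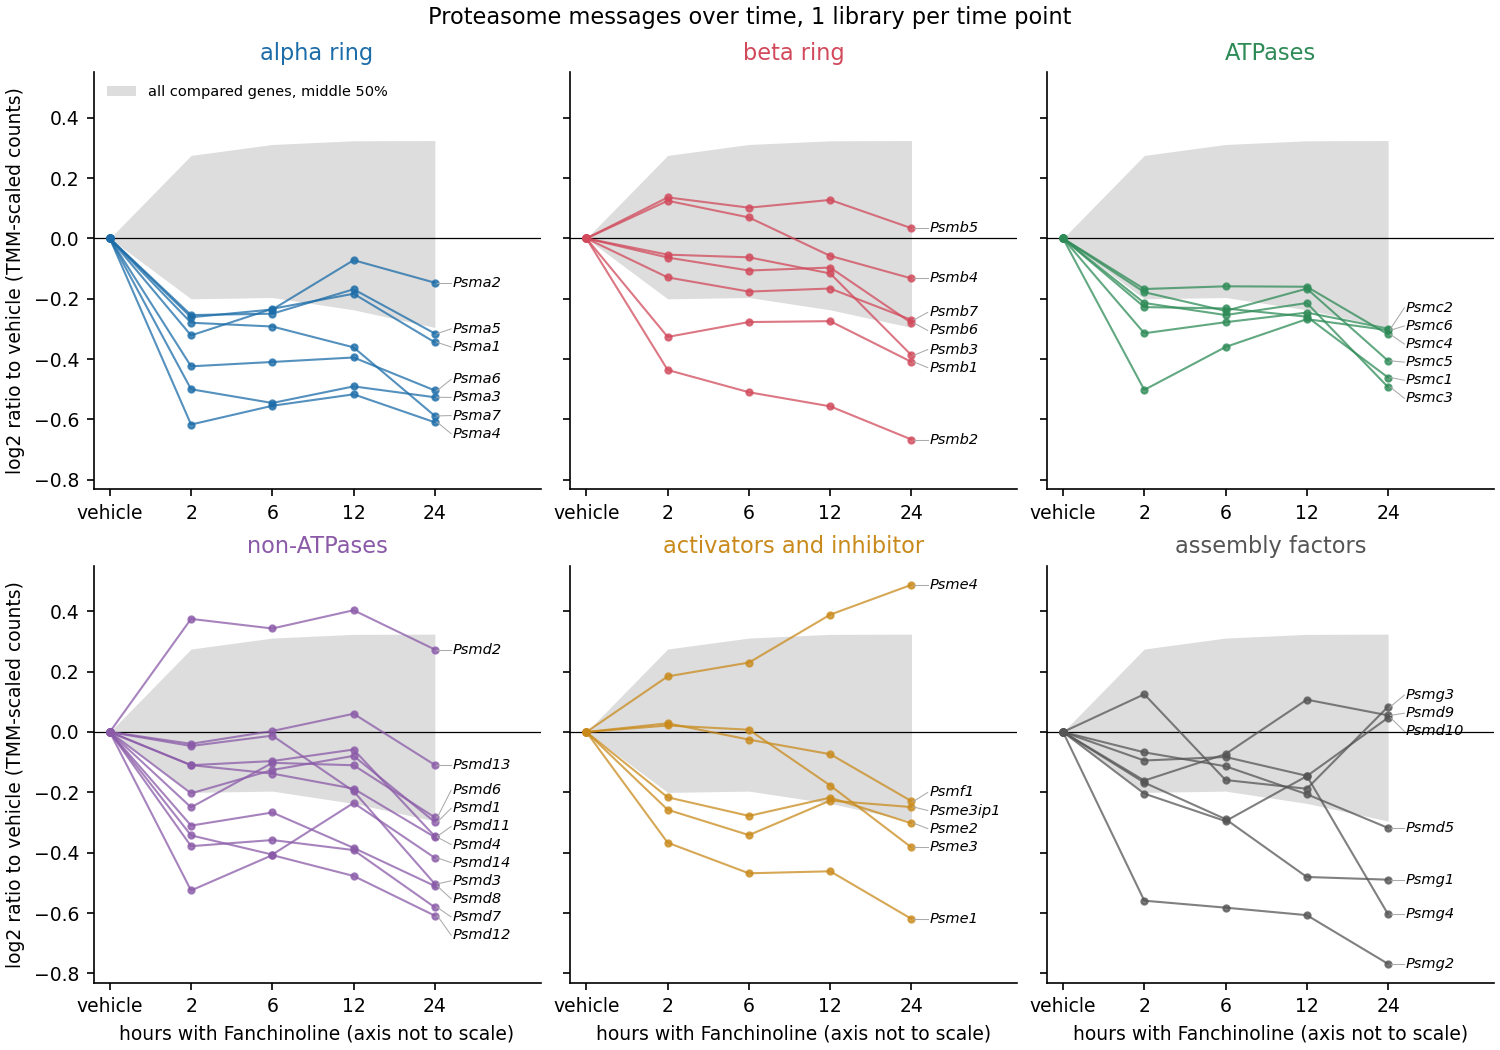
Log2 ratio to vehicle (vertical axis, TMM-scaled counts) of the 44 compared members against hours with Fanchinoline (horizontal axis, not to scale), in 6 panels by role. Each point is 1 library, and the grey band holds the middle 50% of all compared genes; most members lie below 0 at 2 h and below their 12 h value at 24 h, while Psmb5, Psmd2 and Psme4 lie above 0 at each time (Psmb5 at 24 h turns below 0 under upper-quartile scaling).

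Calls needed a log2 ratio of 0.5 or more in size together with a 95% exact counting interval that left out a ratio of 1. At 2 h 4 members were called lower, against a background of 5.97% of compared genes, and at 6 h also 4 (6.16%). At 12 h 3 were called lower (8.52%), and at 24 h 12 were (12.2%). The 12 were Psma3, Psma4, Psma6, Psma7, Psmb2, Psmd3, Psmd7, Psmd8, Psmd12, Psme1, Psmg2 and Psmg4. Called higher were 0 members at each of the 4 times, against backgrounds of 10.5%, 13%, 14.4% and 15.3%, although under DESeq2's size factors or total counts Psme4 passed at 24 h. At a size of 1 no member was called at any time, against 1.33%, 1.94%, 3.07% and 4.09% of genes in either direction.

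Over all compared genes, transcript length moved with the distance to vehicle. Among the 44 members alone, the Spearman correlation of ratio with length was 0.105 at 2 h and 0.291 at 24 h. Proteasome messages are short: the members' median transcript was 1561 bases and that of all compared genes 3145 bases, and 35 of the 44 members lay in the 2 shortest length quintiles of all genes. A smooth fit of the ratios on length and GC content over all genes placed a typical member at -0.22 at 2 h and -0.23 at 24 h. With that fit taken off, medians of the members were -0.0088 at 2 h and -0.0091 at 6 h, then -0.02 at 12 h and -0.18 at 24 h. Called lower were then 0 members at 2, 6 and 12 h (backgrounds 2.49%, 2.69% and 5.64%) and 1 at 24 h, Psmd5 (9.07%). At 24 h 34 of 44 members were below 0 after this adjustment, as were 4665 of the 8835 compared genes that could be adjusted. The core and the cap then had medians of -0.05 and -0.18, a difference that was not tested.

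**Figure D2:**
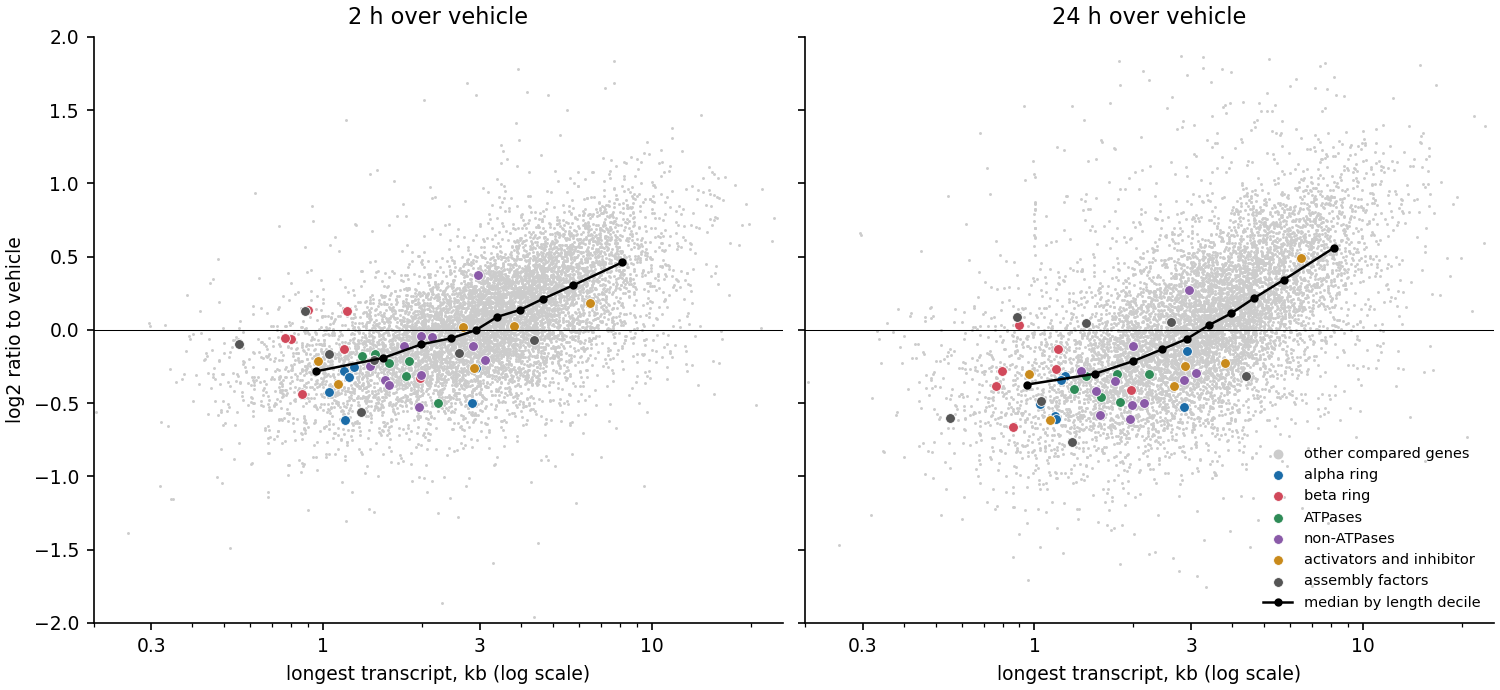
Log2 ratio to vehicle (vertical axis) against the length of the longest transcript in kb (horizontal log axis) at 2 h and at 24 h, with members in colour, other compared genes in grey and the black line joining medians of length deciles. The line climbs with length in both panels and most members lie at short lengths, near it at 2 h and more often below it at 24 h; the axis leaves out 14 genes at 2 h and 33 at 24 h.

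Between the treated libraries, where long and short transcripts were nearly in balance, the members showed a step at the end of the course. For 6 h over 2 h the members' median log2 ratio was -0.01 with 24 of 44 below 0, and for 12 h over 6 h it was 0.01 with 19 below 0. For 24 h over 12 h it was -0.14 with 41 of 44 below 0, while the median of all compared genes was -0.03 with 59.3% below 0. All 14 compared core subunits (median -0.11) and all 17 cap subunits (median -0.17) were lower at 24 h than at 12 h. Of these, 13 and 16 had a counting interval below 0, as had 3046 of all 8846 compared genes. Adjusted for length and GC content, the medians were -0.13 for the core and -0.19 for the cap, again with 14 of 14 and 17 of 17 below 0. Over all compared genes the adjusted median was -0.05, with 5569 of 8835 below 0.

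The size of that step was small for each gene and depended on scaling. No member was lower by 0.5, a size at which 0.486%, 1.49% and 0.418% of compared genes were called lower for 6 h over 2 h, 12 h over 6 h and 24 h over 12 h. For 24 h over 2 h, 36 of 44 members were below 0 (median -0.12), against 53.7% of all compared genes (median -0.03). In that comparison 1 member was called lower, Psmg4 (-0.51), against 6% of compared genes. The lowest member for 24 h over 12 h was Psmg4 at -0.46 and the lowest subunit Psmd3, of the lid, at -0.31. Higher at 24 h than at 12 h were Psmg3 (0.27), Psmd10 (0.19) and Psme4 (0.10). Scaled by total counts alone, the members' median for this step was -0.06 with 33 of 44 below 0, the core having 11 of 14 and the cap 15 of 17 below 0. Under that scaling the median of all genes was 0.04, and 14 of 14 core and 17 of 17 cap subunits lay below it.

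**Figure D3:**
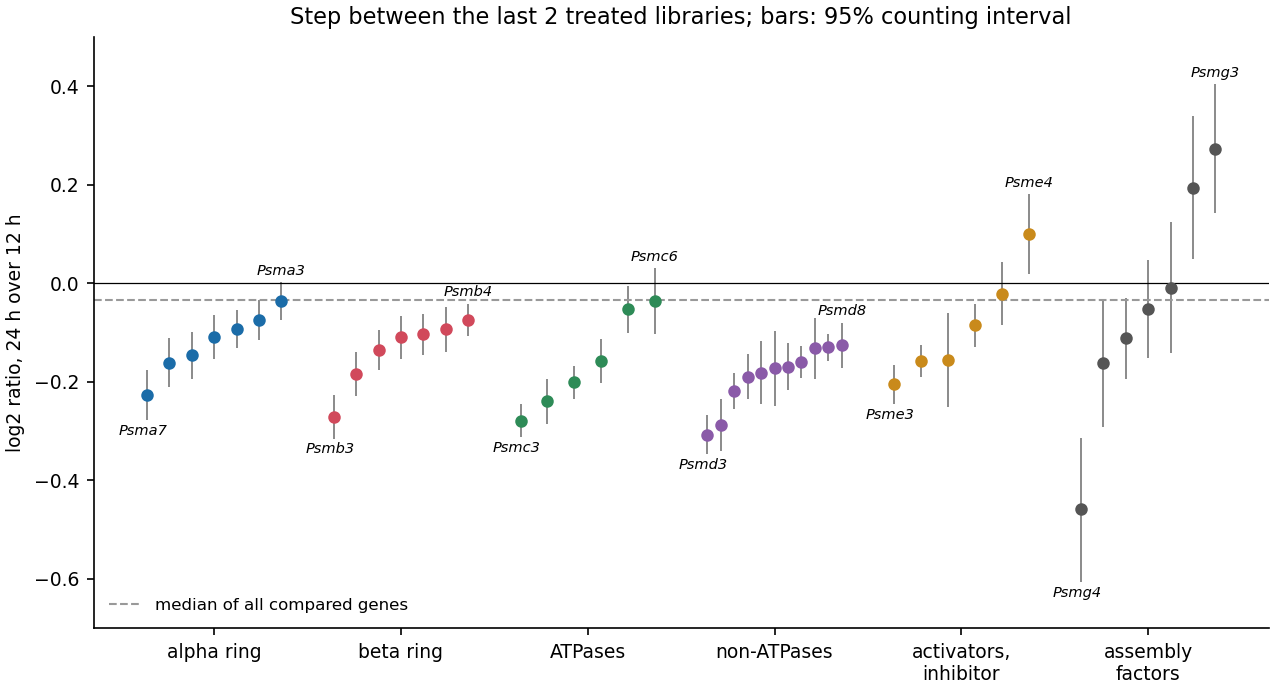
Log2 ratio of 24 h over 12 h (vertical axis) for each compared member, grouped by role along the horizontal axis and ordered within each role, with 95% counting intervals as bars and the median of all compared genes as a dashed line at -0.03. Each core and cap subunit lies below 0, and Psme4, Psmd10 and Psmg3 lie above it.

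Alpha ring messages, which encode the gate of the core, had the lowest median of the subunit classes against vehicle before adjustment. They summed to 1416 CPM at 24 h and 1931 CPM in vehicle, and their median log2 ratio was -0.50 at 24 h, with 7 of 7 below 0 and 4 called lower. Psma4 had 396 CPM in vehicle and 258, 270, 277 and 259 CPM at 2, 6, 12 and 24 h. All 4 treated libraries were below vehicle and close to each other, with a log2 ratio of -0.61 at 24 h (counting interval -0.65 to -0.57, -0.29 adjusted for length and GC content). Psma2 was the nearest to vehicle in this class, with 250.6 CPM in vehicle and 209, 213, 238 and 226 CPM at 2, 6, 12 and 24 h, and a ratio of -0.15 at 24 h (-0.19 to -0.10). Psma7 (-0.59), Psma3 (-0.53) and Psma6 (-0.50) were the other called members at 24 h. After adjustment the class median was -0.18, above the -0.29 of the non-ATPases.

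Beta ring messages were more spread, with Psmb5 (0.03) and Psmb4 (-0.13), a subunit without a proteolytic site, nearest to vehicle at 24 h. The class median at 24 h was -0.28, and 0.02 after adjustment. Psmb5, the chymotrypsin-like subunit, had 185 CPM in vehicle and 204, 199, 202 and 190 CPM at 2, 6, 12 and 24 h. Its log2 ratio was 0.14 at 2 h (0.09 to 0.18) and 0.03 at 24 h (-0.01 to 0.08), where the sign turned under upper-quartile scaling (-0.02) and the adjusted value was 0.35. The other catalytic subunits were at -0.28 (Psmb6, caspase-like) and -0.27 (Psmb7, trypsin-like) at 24 h, with adjusted values of 0.05 and 0.02. Psmb2, another subunit that cuts no peptide bonds, stood at the other end. It had 315 CPM in vehicle and 233, 222, 215 and 199 CPM at 2, 6, 12 and 24 h, each lower than the one before, and a ratio of -0.67 at 24 h (-0.71 to -0.62, -0.34 adjusted).

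Set against their immunoproteasome counterparts within each library, where scaling plays no part, the pairs differed. The count ratio of Psmb5 to Psmb8, which replaces it in the immunoproteasome, was 0.291 in vehicle and 0.348, 0.360, 0.417 and 0.429 at 2, 6, 12 and 24 h, a log2 change of 0.56 by 24 h. The ratio of Psmb6 to Psmb9 was 0.681 in vehicle and 0.640, 0.686, 0.773 and 0.670 at 2, 6, 12 and 24 h, and that of Psmb7 to Psmb10 was 1.27 in vehicle and 1.32, 1.34, 1.38 and 1.21 at these times. Both stood above vehicle at 12 h, by 0.18 and 0.12 on the log2 scale, and below it at 24 h, at -0.02 and -0.07. Psmb8 itself had 442.5 CPM at 24 h and 636 CPM in vehicle.

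The ATPases of the cap lay close together. Their log2 ratios at 24 h over vehicle lay between -0.49 and -0.30, the narrowest range among the 6 roles, and 0 of 6 were called. Psmc3 was the lowest, with 446 CPM in vehicle and 384, 374, 384 and 316.5 CPM at 2, 6, 12 and 24 h, so that most of its distance to vehicle (-0.49, -0.53 to -0.46, -0.33 adjusted) appeared after 12 h. Psmc2 was the highest, with 212 CPM in vehicle and 170, 175, 179 and 172 CPM at 2, 6, 12 and 24 h and a ratio of -0.30 (-0.35 to -0.25). Psmc6 was called lower at 2 h (-0.50), when its adjusted value was 0.06, and stood at -0.30 at 24 h. The adjusted median of the class at 24 h was -0.13.

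Among the 11 non-ATPases of the cap, 10 lay below vehicle at 24 h and Psmd2 above it. Psmd2, a large scaffold that receives ubiquitin-like domains, had 404 CPM in vehicle and 524, 513, 535 and 489 CPM at 2, 6, 12 and 24 h. The treated libraries were all higher, with a ratio of 0.37 at 2 h (0.34 to 0.41) and 0.27 at 24 h (0.24 to 0.30, 0.28 adjusted). Psmd1, the paralogous scaffold beside it, had 350 CPM in vehicle and 285 CPM at 24 h (-0.30). The count ratio of Psmd2 to Psmd1 was 1.72 at 2 h, 1.60 at 6 h, 1.61 at 12 h, 1.72 at 24 h and 1.16 in vehicle.

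Lid subunits ran from -0.61 for Psmd12 to -0.11 for Psmd13 at 24 h. Psmd12 had 154 CPM in vehicle and 107, 116, 110 and 101 CPM at 2, 6, 12 and 24 h, with a ratio of -0.61 at 24 h (-0.67 to -0.55, -0.43 adjusted). Psmd7, which pairs with the deubiquitinase Psmd14, was at -0.58 (-0.36 adjusted), Psmd8 at -0.51 and Psmd3 at -0.50. The lid subunits Psmd14, Psmd11 and Psmd6 stood at -0.42, -0.35 and -0.28, and the ubiquitin receptor Psmd4 at -0.35. Adjusted for length and GC content, the median of the non-ATPases at 24 h was -0.29, with 9 of 11 below 0, against 4665 of 8835 compared genes.

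The proteasome activators went different ways. Psme1, a subunit of the interferon-induced activator, had 533 CPM in vehicle and 414, 386, 387 and 347 CPM at 2, 6, 12 and 24 h, all below vehicle, with a ratio of -0.62 at 24 h (-0.65 to -0.59, -0.35 adjusted). Its partner Psme2 stood at -0.30 (-0.35 to -0.26), and the count ratio of Psme1 to Psme2 was 1.71 at 24 h and 2.13 in vehicle. Psme4, the large single-chain activator, was the highest of all members at 24 h before adjustment, while Psmd2 was higher at 2, 6 and 12 h. It had 45.3 CPM in vehicle and 51.5, 53.1, 59.3 and 63.5 CPM at 2, 6, 12 and 24 h, each higher than the one before, with a ratio of 0.49 at 24 h (0.40 to 0.58).

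Psme4 is also the member with the longest transcript and the one member in the longest quintile of genes, and its adjusted value at 24 h was 0.07. Against Psme3, the nuclear activator, its count ratio was 0.269 at 24 h and 0.147 in vehicle. Psme3 was at -0.38 at 24 h (-0.32 adjusted), and Psme3ip1, which binds Psme3, at -0.25. The inhibitor Psmf1 was at -0.23 at 24 h and -0.35 after adjustment.

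Assembly factors held both the lowest member at 24 h and 3 members whose intervals held 0. Psmg2, which with Psmg1 forms a chaperone of the alpha ring, had 39.0 CPM in vehicle and 26.4, 26.02, 25.6 and 22.9 CPM at 2, 6, 12 and 24 h. Every treated library was below vehicle, with a ratio of -0.77 at 24 h (-0.89 to -0.65, -0.49 adjusted). Psmg1 was at -0.49 and Psmg4, which pairs with Psmg3, at -0.60. Psmg3 had 24.9 CPM in vehicle and 27.1, 22.3, 21.8 and 26.4 CPM at 2, 6, 12 and 24 h, with no steady order and a ratio at 24 h of 0.08 whose interval held 0 (-0.05 to 0.22).

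Of the chaperones of the ATPase ring, Psmd9 (0.06) and Psmd10 (0.05) had intervals that held 0 at 24 h, and Psmd5 was at -0.32 (-0.40 to -0.24). Psmd5 has a long transcript for a member, and its adjusted value, -0.51, was the lowest of the 44. Exons of Psmd9 overlap another gene over 25.5% of their length, and libraries that do not mark strand cannot divide such reads. In total, 12 members had an exon overlap of at least 0.342% of their exon length, over 10% in Psmb5, Psmb7, Psmd13 and Psmd9. For 8 members a near-identical transcript lies in another entry of the table, whose counts were at most 2.85% of the member's at 24 h and 1.398% in vehicle.

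**Figure D4:**
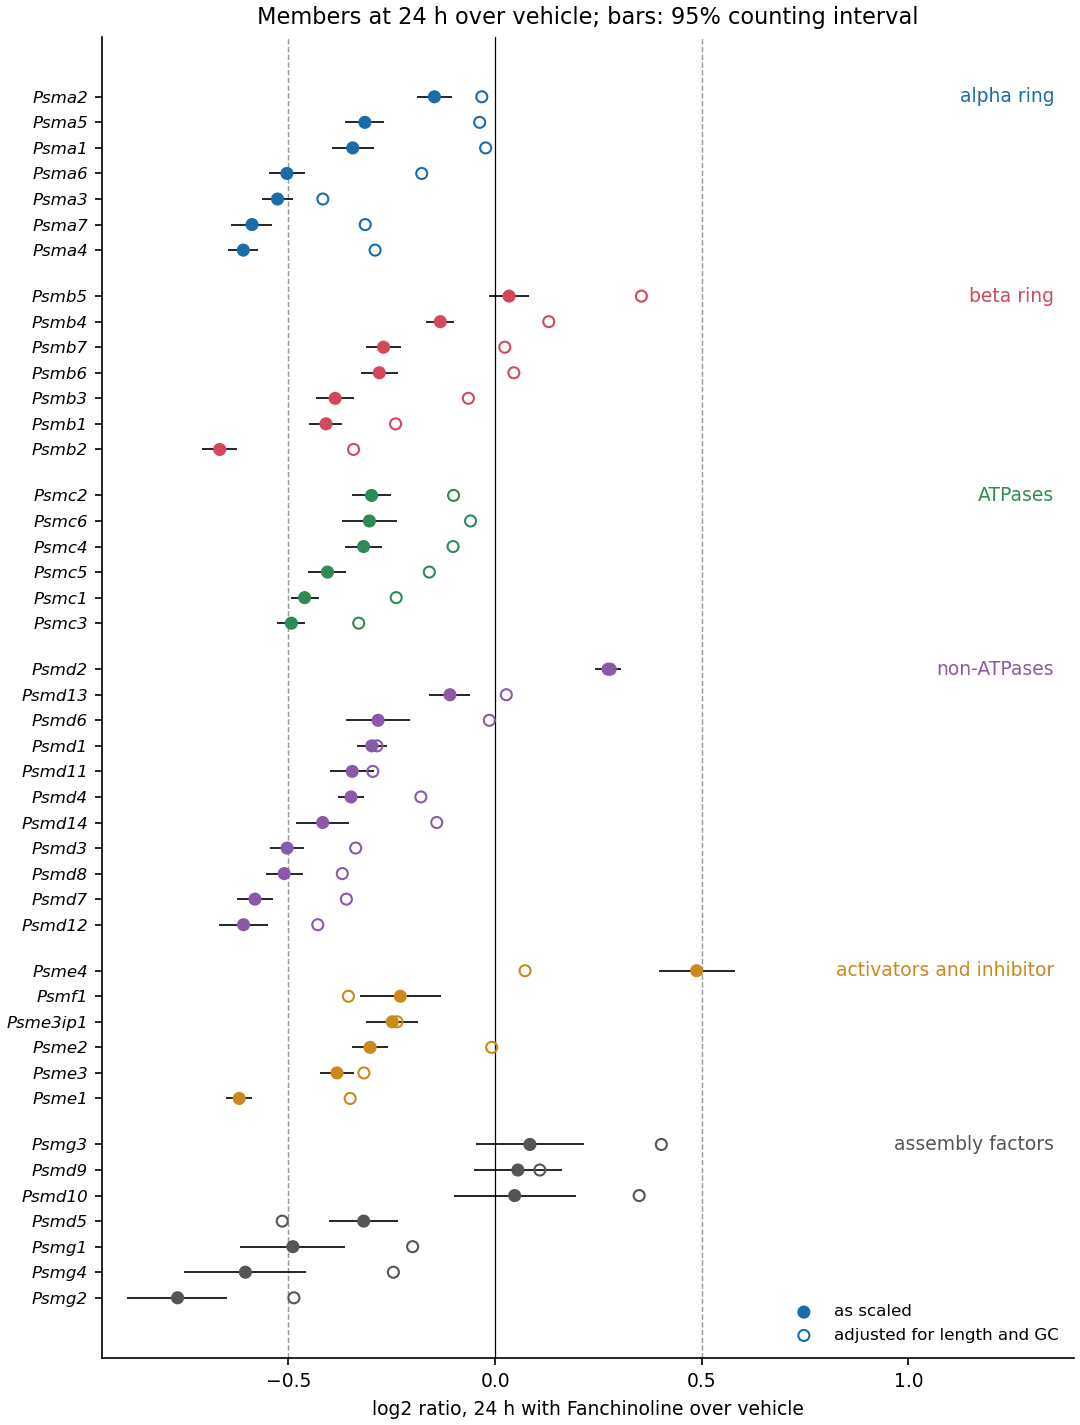
Log2 ratio of 24 h with Fanchinoline over vehicle (horizontal axis) for the 44 compared members, grouped by role and ordered within each role. Filled points are TMM-scaled with 95% counting intervals as bars, open points are adjusted for transcript length and GC content, and dashed lines mark a size of 0.5; filled points run from -0.77 for Psmg2 to 0.49 for Psme4, and most open points lie nearer to 0.

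A slope over the 5 libraries was tested for every gene with edgeR's quasi-likelihood test on log2 of hours plus 1. With 1 library a time point, the residual spread is the scatter of the libraries about each gene's line. Of 13915 genes, 745 rose and 564 fell at a Benjamini-Hochberg adjusted p under 0.05. Among the 44 members tested, 5 fell, against a background of 4.05%, and 1 rose, against 5.35%. Psmb2 fell with a slope of -0.13 per unit (edgeR adjusted p = 0.0362), Psme1 with -0.12 (0.0417), Psmg2 with -0.15 (0.0446), Psma7 with -0.11 (0.0446) and Psmg1 with -0.11 (0.0473). Psme4 rose with 0.10 (edgeR adjusted p = 0.0496). The slopes of 39 of the 44 members were below 0, against 6924 of the 13915 genes. The members' median slope was -0.06 against 0.0005 over all genes. This test includes the vehicle library and takes no account of transcript length or GC content. Adjusted for both, the ratio of Psme4 at 24 h over vehicle was 0.07.

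The trend calls depended on the libraries used and on the form of the slope, over all genes as for the members. Without vehicle 2 members fell (Psmd3 and Psme3) and Psme4 rose, when 1078 of 13764 genes fell and 1099 rose. Without the 2 h library 11 members fell and Psme4 rose, when 988 of 13788 genes fell and 1217 rose. Without the 6 h library 0 members passed edgeR's test and 16 had an unadjusted p under 0.05, when 198 of all genes fell and 311 rose. Without the 12 h library, or with a slope on hours in place of log2 hours, 0 of all genes passed, and without the 24 h library 3 fell and 25 rose, so the counts of 0 members there say nothing about the members. Unadjusted, 15, 14 and 12 members had a p under 0.05 in these fits. Shares of all genes at an unadjusted p are not given for the reduced or altered fits, so these counts have no background. In the main edgeR fit, 4122 of 13915 genes and 21 of 44 members had an unadjusted p under 0.05.

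Genes that act on or beside the proteasome were read from 5 lists, with the same call rule. The backgrounds at 24 h were again 12.2% of compared genes called lower and 15.3% called higher. Of 9 immunoproteasome and class I genes, 2 were called lower at 24 h and 1 higher, with a median of -0.20 (-0.13 adjusted). The called ones were B2m, the light chain of class I (-0.55), Psmb8 (-0.52) and Nlrc5, a transactivator of class I genes (0.74). Their adjusted values were -0.15, -0.33 and 0.18. The peptide transporter subunit Tap2 was at -0.26, and Psmb8 was the 1 gene of the list whose slope passed (edgeR adjusted p = 0.0417).

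Partners of the proteasome that the symbols do not show had a median of -0.35 at 24 h over 14 measured genes (-0.28 adjusted), with 5 called lower and 1 higher. Lower were Adrm1, a ubiquitin receptor of the cap (-0.73), Txnl1, a thioredoxin-like cap partner (-0.71), Akirin2, which carries proteasomes into the nucleus (-0.59), Pomp, the chaperone of beta ring assembly (-0.54) and Uchl5, a deubiquitinase bound to Adrm1 (-0.52). Pomp had 306 CPM in vehicle and 214, 213, 231 and 211 CPM at 2, 6, 12 and 24 h, and its adjusted value at 24 h was -0.67. Higher was Zfand2a, a stress-induced zinc finger partner, with 20.8 CPM in vehicle and 34.6, 32.8, 37.4 and 39.3 CPM at 2, 6, 12 and 24 h (0.91, 0.88 adjusted). Adjusted for length and GC content, Adrm1 was at -0.42, Txnl1 at -0.84, Akirin2 at -0.33 and Uchl5 at -0.24 at 24 h. Adrm1 and Akirin2 fell in the trend test and Ecpas, an adaptor of the particle, rose (edgeR adjusted p = 0.0353, 0.0334 and 0.0369). Ecpas was at 0.50 at 24 h over vehicle and at 0.04 after adjustment.

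Regulators of proteasome gene transcription stood above vehicle more often than below, with a median of 0.16 at 24 h over 13 compared genes (0.04 adjusted), 3 called higher and 0 lower. These were Bach1, a repressor at antioxidant response elements (0.91), its partner Maff (0.62) and Ddi2, the protease that activates NFE2L1 (0.55, -0.06 adjusted). Nfe2l1, the main activator of proteasome genes when the protease is impaired, had 194 CPM in vehicle and 291, 277, 255 and 209 CPM at 2, 6, 12 and 24 h. It was highest at 2 h (0.59, 0.25 adjusted), lower in each later library, and at 0.11 at 24 h (-0.18 adjusted). Nfyc, a subunit of NF-Y, was at -0.39.

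Shuttles that bring ubiquitinated proteins to the cap and the segregase that extracts them had a median of -0.22 over 12 compared genes at 24 h (-0.30 adjusted), with 2 called lower and 0 higher. These were Ubxn1 (-0.95, -0.71 adjusted) and Nsfl1c (-0.68), both cofactors of the segregase Vcp, and both fell in the trend test (edgeR adjusted p = 0.0235 and 0.0305). Nploc4, another Vcp cofactor, was at 0.25. For 24 h over 12 h, 12 of 12 of these genes were below 0, with a median of -0.16. Of all compared genes 59.3% were below 0, with a median of -0.03.

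Ubiquitin and its activating and conjugating enzymes had a median of -0.39 at 24 h over 15 genes (-0.20 adjusted), with 4 called lower and 1 higher. Among the lower ones were the conjugating enzymes Ube2r2 (-0.71) and Ube2k (-0.55) and the ubiquitin-ribosome fusion Rps27a (-0.56). Higher was Uba6, an alternative activating enzyme, which also rose in the trend test (0.72, edgeR adjusted p = 0.0274). Adjusted for length and GC content, Ube2r2 was at -0.81, Ube2k at -0.78, Rps27a at -0.21 and Uba6 at 0.36 at 24 h. For 24 h over 12 h, 13 of 15 of these genes, 11 of 14 partners, 8 of 13 transcription regulators and 4 of 9 immunoproteasome and class I genes were below 0. Of all compared genes, 59.3% were below 0 in that comparison.

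**Figure D5:**
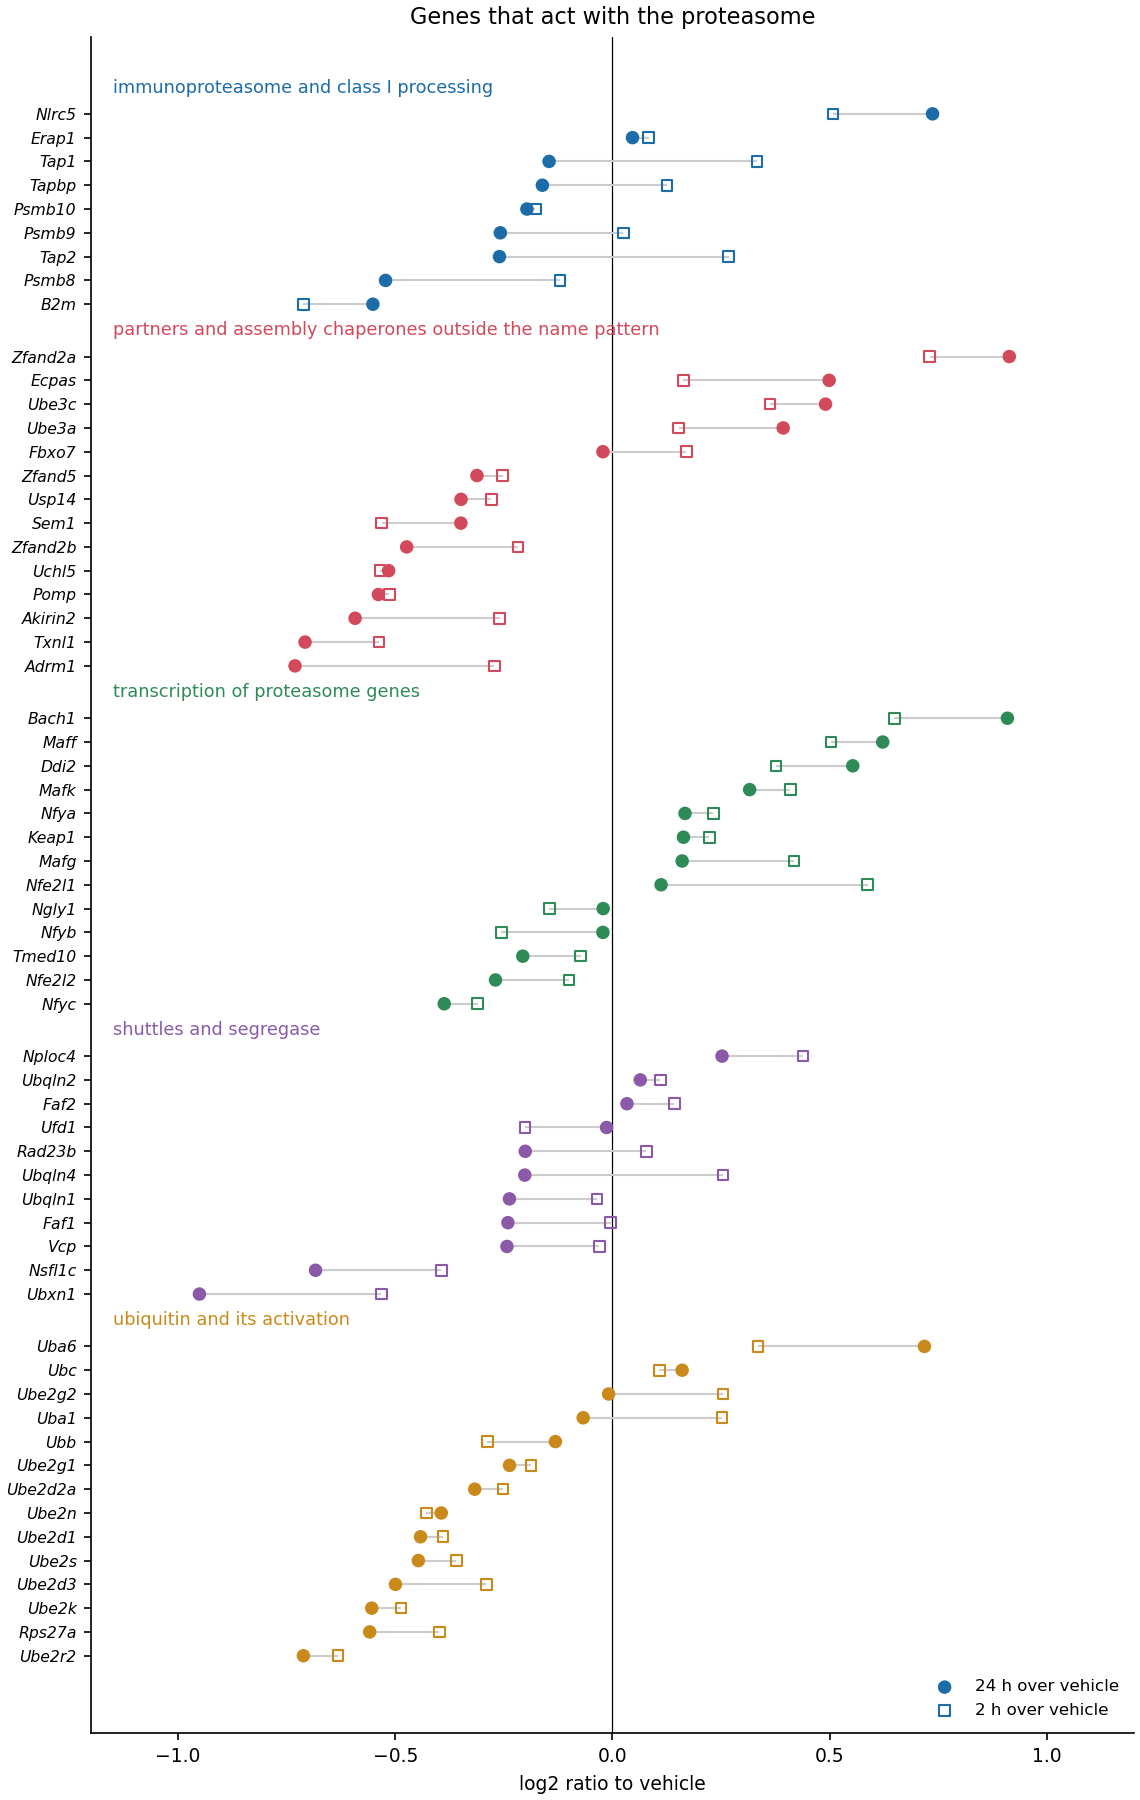
Log2 ratio to vehicle (horizontal axis) at 24 h (filled circles) and 2 h (open squares) for compared genes of 5 lists that act with the proteasome (2 genes are not drawn), ordered within each list by the 24 h value. Zfand2a, Bach1, Nlrc5 and Uba6 lie farthest above 0 and Ubxn1 farthest below it, and Nfe2l1 lies at 0.59 at 2 h and 0.11 at 24 h.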

How the data were processed

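Poly-A RNA extracted with TRIzol was sequenced from MutuDC cells as TruSeq libraries that do not mark strand, per the labels' protocols. The authors deposited raw read counts per gene, 53700 genes in 5 columns, and no column was left unmapped to a time point. Trim Galore, HISAT2 and GRCm38 appear in the submitters' processing notes. The counting program, its gene models and its strand setting: not given in the sources used here. Read counts were scaled with TMM factors of 0.977 to 1.05 and turned into log2 ratios with a prior count of 2 (R 4.3.3, edgeR 4.0.16, limma 3.58.1). Intervals are exact 95% Clopper-Pearson intervals of a ratio of 2 scaled counts and cover counting error only, since amplified reads are not independent molecules. A count of 0 allows up to 3 counts.

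Values adjusted for length and GC are ratios less a spline fit, 4 degrees of freedom each, over the 8835 compared genes with a transcript in GENCODE M21. The trend test kept genes by edgeR's filterByExpr and has 3 residual degrees of freedom per gene. Its p-values measure scatter around a line, with no replicate of any time point. The interval and trend procedures were tested on simulated counts that held no library effects and no imbalance of long and short transcripts. Those runs therefore do not show how the procedures behave where such differences exist. Members, lists and the smaller size of 0.5 were chosen with earlier results of these data known. Values in every library are given for the 3 lowest and 3 highest members at 24 h over vehicle, the lowest and highest in each role and the 3 smallest trend p-values; other members and listed genes complete counts or roles. Of each list of partner genes the 4 largest ratios in size at 24 h are named, together with genes that complete a count, except for 2 genes that are not reported here by name; Nfe2l1, Pomp and Ecpas were added after their values were seen. Alternatives were DESeq2 1.42.0 size factors and its Wald test, upper-quartile and total-count scaling, other filters and prior counts, the length and GC adjustment, another slope and leaving out each library. The comparison of 24 h with 12 h under these alternatives, and scaling without mitochondrially encoded messages, were chosen after seeing the data. Of the members, 8 had no promoter entry: Psma8, Psmb1, Psmb2, Psmb7, Psmc3, Psmd3, Psmd7 and Psmg2.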

Additional observations from a re-analysis of the deposited data

Results flagged for a closer look

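Of the entries named after proteasome genes but outside the set, 2 had a counting interval above 0 for 24 h over vehicle. Psme2b, a copy related to Psme2, had 173 counts at 24 h and 43 in vehicle, or 4.05 and 1.31 CPM, a log2 ratio of 1.59 with a counting interval of 1.14 to 2.14. Psme2 itself was lower at 24 h, at -0.30. The pseudogene entry Psma5-ps had 25 counts at 24 h and 8 in vehicle, a log2 ratio of 1.11 with an interval of 0.07 to 2.62. Both lie below 10 CPM in every library and are by name copies of expressed members, and the handling of reads that match several genes is not stated.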

How the results depend on the processing

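No paired analysis was possible because each time point has 1 library. Against vehicle, the adjustment for length and GC content moved the values the most: members called lower became 0 at 2, 6 and 12 h and 1 at 24 h, and the medians of all members became -0.0088, -0.0091, -0.024 and -0.18 at 2, 6, 12 and 24 h. It turned the sign of the core's median at 2, 6 and 12 h (0.0722, 0.0685 and 0.11), of the beta ring's at all 4 times (0.18, 0.17, 0.18 and 0.0234) and of the assembly factors' at 2 and 12 h (0.0919 and 0.0922). Upper-quartile scaling gave medians of -0.26, -0.30, -0.24 and -0.40 and 7 members lower at 12 h (11.2% of all compared genes). Total counts alone shifted the median of all genes at 24 h to 0.10 and gave the members a median of -0.24, with 6 lower and 1 higher in place of 12 and 0, when 8.17% and 21% of all compared genes were called. DESeq2's size factors also gave 1 higher at 24 h (16.4% of all genes). With total counts the median of 24 h over 12 h was -0.0629 and that of 24 h over 2 h was -0.0436, both below 0, against -0.14 and -0.12 with TMM. Leaving mitochondrially encoded messages out of the scaling left the 24 h over 12 h median at -0.14.

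In the trend, DESeq2's Wald test called 9 members lower and 1 higher, and 988 and 1354 of 11455 genes. A slope on hours gave 0 and 0 members and no filter 0 and 0, each with 0 calls over all genes. Leaving out each library in turn gave 0 to 11 members lower and 0 to 1 higher, and 0 to 1078 and 0 to 1217 of all genes. Among the members named with values in every library, the adjustment took Psmg2, Psmb2, Psme1, Psma4 and Psmd12 below the size of 0.5. The cause of these differences was not tested. With 1 library per time point, a difference between times of the size seen here has no replicate spread to be set against, and the counting intervals, narrow at this depth, do not stand for it.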

Other observations

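Comparing 24 h with 2 h, which leaves the vehicle library out, the median of the 44 members was -0.12 with 36 below 0 (-0.16 adjusted). Of all compared genes 53.7% were below 0. Called lower was 1 member, Psmg4 (-0.51), against 6% of compared genes. Psme3 (-0.40) and Psmd3 (-0.46), a pair that stood near vehicle at 2 h with -0.05 for Psmd3 and 0.02 for Psme3, were among the lowest. Psmc6, in contrast, was at 0.20 for 24 h over 2 h and Psma2 at 0.11, with adjusted values of -0.12 and -0.14. Psme4 (0.30) and Psmd10 (0.25) were the highest.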
